A study of Rattus norvegicus with 47 samples.

Results

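A set of 6 genes of the neuronal calcium and sodium signalling machinery was followed by their Affymetrix probe sets in rat brain after injury. They are Cacna1c, Cacna1d, Cacna1e, Cacnb1, Scn1a and Itpr1. All probe sets whose platform annotation names 1 of these 6 genes were taken, which gave 16 probe sets of 8799 on the array, for 6 of the 4737 genes it names. In RefSeq (build GRCr8) Scn1a lies on chromosome 3, Itpr1 and Cacna1c on 4, Cacnb1 on 10, Cacna1e on 13 and Cacna1d on 16. Itpr1 and Cacna1d had 5 probe sets each, Cacna1c had 3, and Cacna1e (L15453_at), Cacnb1 (rc_AA957892_at) and Scn1a (M22253_at) had 1 each. All 16 passed the filter on dim values. The data are 47 oligonucleotide arrays of total RNA from cortex or hippocampus taken ipsilateral or contralateral to a brain injury, and HC, as the labels write it, was taken to stand for hippocampus. There were 7 arrays of ipsilateral and 9 of contralateral hippocampus at 4 h after injury, 8 of ipsilateral and 8 of contralateral cortex at 24 h, and 7 of ipsilateral and 8 of contralateral cortex at 4 h. The labels give no strain, age or kind of injury for these groups, and nothing in them tells sham surgery apart from injury. Contralateral tissue is therefore tissue from the other side of the brain in samples of the same labels. No group is labelled as uninjured, and arrays of sham-operated animals within any group could not be told apart. Nothing in the labels says that arrays of a group come from separate animals, so the p-values refer to the variation among these arrays, part or all of which may be technical.

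Voltage-gated calcium channels let calcium into a neuron when its membrane depolarises. Their pore is an alpha-1 subunit, which Cacna1c and Cacna1d encode for the L-type channels Cav1.2 and Cav1.3 and Cacna1e for the R-type channel Cav2.3, while Cacnb1 encodes an intracellular beta subunit that helps bring the pore to the membrane. Scn1a encodes the voltage-gated sodium channel Nav1.1, which is known for its role in the firing of inhibitory interneurons. Itpr1 encodes the type 1 inositol trisphosphate (IP3) receptor, which releases calcium from the endoplasmic reticulum when phospholipase C has made IP3, and it is the main such receptor of neurons.

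Promoter windows from RefSeq (build GRCr8) were at hand for 4 of the 6 genes, Itpr1, Cacna1c, Cacna1e and Cacna1d. The start regions of Itpr1 and Cacna1d are shown because these are the 2 genes with the most probe sets, and because their windows differ in base composition. Each line gives the part of the window that lies outside the annotated gene, 5′ to 3′ on the gene's strand. Itpr1 is at chr4:142743190-142743400 on the plus strand and Cacna1d at chr16:5527550-5527799 on the minus strand. Capitals mark the letters TATAA in Itpr1 and GGGCGG, the core of a GC box, in Cacna1d.
Itpr1: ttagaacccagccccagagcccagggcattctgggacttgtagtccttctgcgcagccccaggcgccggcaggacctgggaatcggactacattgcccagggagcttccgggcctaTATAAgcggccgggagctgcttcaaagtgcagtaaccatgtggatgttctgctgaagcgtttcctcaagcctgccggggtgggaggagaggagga
Cacna1d: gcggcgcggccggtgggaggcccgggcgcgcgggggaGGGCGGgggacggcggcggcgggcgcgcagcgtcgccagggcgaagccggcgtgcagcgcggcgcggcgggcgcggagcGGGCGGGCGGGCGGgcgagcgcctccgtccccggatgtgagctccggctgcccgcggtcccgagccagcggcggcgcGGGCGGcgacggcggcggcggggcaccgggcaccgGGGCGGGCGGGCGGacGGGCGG

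GC content was 62.0% in the Itpr1 window and 88.7% in the Cacna1d window, against a median of 51.7% over all 33465 windows. Both strands were searched for 6 motifs. TATAA, the core of a TATA box, occurred 1 time in the Itpr1 window and 0 times in the other 3, and 26.2% of all windows hold it. GGGCGG occurred 10 times in the Cacna1d window, with overlapping matches counted, and 0 times in the other 3, and 33.1% of all windows hold it. CCAAT, found in 37.5% of all windows, occurred 1 time in Cacna1c. TGACGTCA (cAMP response element, 1.8% of windows), TGACTCA (AP-1 site, 4.6%) and CACGTG (E-box, 6.4%) were not among the letters of these 4 windows. A match describes the letters of a window and is no measure of binding.

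The deposited values are signals, an intensity per probe set on a linear scale that was already scaled between arrays. A signal under 186, the 25th percentile of all values, was raised to that floor before log2 was taken, so a fold change against a group with arrays at the floor is understated. Differences are log2 differences from limma with their standard error (SE) over 7503 tested probe sets, and a probe set passed where its Benjamini-Hochberg adjusted p was under 0.05. The median signal per array lay between 615 and 879. Of 6 hippocampus-enriched marker genes tested, 5 were higher in hippocampus than in cortex on both sides, with Neurod1, a transcription factor of granule neurons, at log2 differences of 1.92 on the ipsilateral and 1.66 on the contralateral side. Of 2 cortex-enriched genes tested, Rorb was at -0.29 on the ipsilateral side (adjusted p = 0.535) and at -0.70 on the contralateral side (adjusted p = 0.0436), while Nr4a2 was higher in hippocampus. Each of the 6 groups carries its own run of sample numbers, apart from array 23. Side, region and time therefore cannot be told apart from anything else that differed between those runs. Array 23 carries a contralateral hippocampus label and a number from within the ipsilateral run, and it had the highest signal of its group for Cacna1e, Cacnb1 and 4 other probe sets of the 16. Array 34, of ipsilateral cortex at 24 h, was the lowest of its group in 4 of the 5 Itpr1 probe sets. Tested differences that rest on these arrays are given with and without them. Levels of different probe sets were not compared, since the brightness of a probe set depends on its probes. In bulk tissue, fewer cells of a type and less RNA per cell cannot be told apart.

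In hippocampus at 4 h, Cacna1e and Cacnb1 were lower on the ipsilateral side and 1 of the 5 Itpr1 probe sets was higher. The signal of Cacnb1, the beta subunit, had a lowest, median and highest value of 557, 962 and 1085 on the 7 ipsilateral arrays and of 1124, 1436 and 2349 on the 9 contralateral arrays. No ipsilateral array reached the lowest contralateral one. Cacnb1 averaged 9.79 ± 0.37 in ipsilateral and 10.55 ± 0.35 in contralateral hippocampus on the log2 scale (SD, n = 7 and 9), a difference of -0.77 (SE 0.16, adjusted p = 0.00187) or 1.70-fold lower. For Cacna1e, the R-type pore, the lowest, median and highest signals were 310.4, 423 and 549 in ipsilateral hippocampus and 508, 798 and 1110.3 in contralateral hippocampus. The groups overlapped, though all 7 ipsilateral arrays lay below the contralateral median. The log2 difference of Cacna1e was -0.88 (SE 0.20, adjusted p = 0.00237), 1.84-fold lower.

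The Itpr1 probe set M64699_s_at had signals of 536, 641 and 866 (lowest, median, highest) in ipsilateral hippocampus and of 127, 221 and 1054 in contralateral hippocampus. It was above the floor on all 7 ipsilateral arrays and on 5 of 9 contralateral arrays, and the highest contralateral value, that of array 23, exceeded every ipsilateral one. The log2 difference was 1.18 (SE 0.35, adjusted p = 0.0174), 2.27-fold higher on the ipsilateral side. The brightest Itpr1 probe set, J05510_at, had 5268, 6025 and 8224 in ipsilateral and 3713, 5077 and 6455 in contralateral hippocampus, a difference of 0.28 (SE 0.11, adjusted p = 0.0722) that did not pass. It passed when array 30 or 31 was left out (adjusted p between 0.0378 and 0.197 over 16 arrays left out in turn). The other 3 Itpr1 probe sets had log2 differences between 0.02 and 0.21 with adjusted p of 0.52 or more. For Scn1a the signals were 1542, 2847 and 3894 in ipsilateral and 1107, 1911 and 2982 in contralateral hippocampus, with 6 of 7 ipsilateral arrays above the contralateral median. Its difference of 0.53 (SE 0.22, adjusted p = 0.0812) did not pass, and passed without array 22 or 31 (lowest adjusted p 0.0259). Cacna1c M59786_at was at -0.27 (SE 0.12, adjusted p = 0.119) with all 7 ipsilateral arrays below the contralateral median, and did not pass. Cacna1c M89924cds_s_at averaged 7.93 in ipsilateral and 8.44 in contralateral hippocampus (log2 signal). Cacna1c U31815_s_at lay the other way, at 8.504 and 8.465, and neither of these passed. The 5 Cacna1d probe sets lay between -0.24 and 0.11 and did not pass.

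Thus 3 of the 16 probe sets passed, 1 higher and 2 lower, against 16.1% of all tested probe sets. The dim end of the arrays also differed between these groups. The 10th percentile of signal averaged 43.98 ± 6.85 on the 7 ipsilateral and 64.8 ± 16.1 on the 9 contralateral arrays (SD, exact permutation test, two-sided, p = 0.0021, adjusted over 3 side comparisons 0.00629). With this percentile as a covariate 0 of the 16 passed in limma, against 0.0666% of all tested probe sets. The differences then were smaller for Cacna1e (-0.56, adjusted p = 0.344) and Cacnb1 (-0.42, adjusted p = 0.375) and larger for Itpr1 M64699_s_at (1.34, adjusted p = 0.227). At an unadjusted p under 0.05 the covariate fit held 747 probe sets, against 2366 in the fit without it, 7 of the 16 among the latter. Without array 23, which had the highest 10th percentile (98.9), the differences were -0.81 (SE 0.20, adjusted p = 0.00548) for Cacna1e, -0.69 (SE 0.16, adjusted p = 0.00436) for Cacnb1 and 1.41 (SE 0.33, adjusted p = 0.00383) for Itpr1 M64699_s_at, so each remained past the threshold. Cacnb1 is also the beta subunit of skeletal muscle. Of 7 muscle marker genes tested, 1 was lower and 0 were higher on the ipsilateral side, and their summed signal was 2880.0 to 4088, median 3216 in ipsilateral and 3253 to 4744, median 4189 in contralateral hippocampus. Pan-neuronal markers summed to 187881 to 203995, median 190801 in ipsilateral and 175707 to 197149, median 188648 in contralateral hippocampus, with 1 of 8 higher and 0 lower. Choroid plexus markers summed to 8053 to 102351, median 12825 in ipsilateral and 9310.5 to 97408, median 47350.0 in contralateral hippocampus, with 0 of 5 higher and 1 lower. Among the other marker lists, 1 of 8 microglia, 1 of 5 endothelial and 1 of 3 erythroid genes were lower and 0 higher, and 0 of 6 astrocyte and 0 of 6 oligodendrocyte genes passed in limma. The 3-prime to 5-prime signal ratio of the beta-actin control, a measure of RNA integrity, was 1.16 to 1.43, median 1.35 in ipsilateral and 1.06 to 1.36, median 1.22 in contralateral hippocampus. The part of these measures in the result was not tested beyond the covariate fit.

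**Figure D1:**
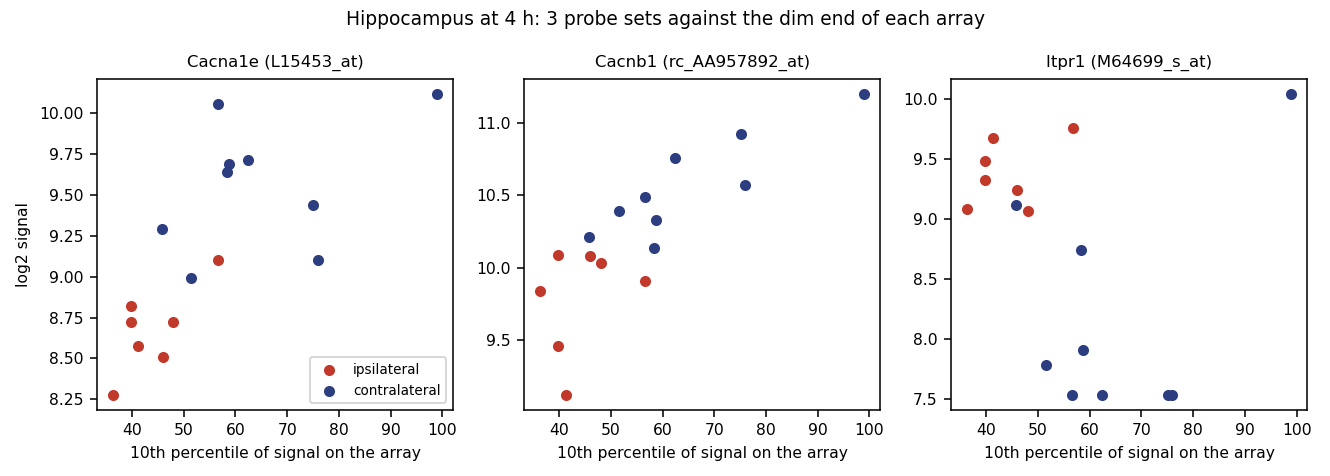
Log2 signal of Cacna1e, Cacnb1 and Itpr1 M64699_s_at (y axes) against the 10th percentile of signal on the same array (x axis) for the 16 hippocampus arrays at 4 h, ipsilateral in red and contralateral in blue. Ipsilateral arrays lie at percentiles of 36.4 to 56.7 and contralateral arrays at 45.8 to 98.9, and array 23 is the point at 98.9.

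In cortex, none of the 16 probe sets passed in the side comparison at either time. At 24 h, 0 passed against 0.107% of all tested probe sets, and 1 of the 16 had an unadjusted limma p under 0.05, with 575 of 7503 in all. That one was Cacna1d D38101_s_at, with signals of 538, 1102 and 1473 (lowest, median, highest) in ipsilateral and 1132, 1282 and 1561 in contralateral cortex, a difference of -0.33 (SE 0.15, adjusted p = 0.622). Array 34 was the low ipsilateral one, and when it was left out the difference was -0.19 (SE 0.14, adjusted p = 0.900). Cacnb1 was at -0.33 (SE 0.16, adjusted p = 0.656), with all 8 ipsilateral arrays below the contralateral median and a 95% interval of -0.66 to 0.00. At 4 h, 0 passed against 0% of all tested probe sets, and 3 of the 16 had an unadjusted limma p under 0.05, with 558 in all. They were Cacna1d U49126_s_at at -0.60 (SE 0.18, adjusted p = 0.337), Itpr1 M64699_s_at at -0.75 (SE 0.36, adjusted p = 0.665) and Itpr1 U38653_s_at at -0.46 (SE 0.22, adjusted p = 0.665). U49126_s_at was above the floor on 1 of 7 ipsilateral and on all 8 contralateral arrays, and the single high ipsilateral array, number 4, had 444. At both times 13 of the 16 differences were below 0, with a median over the 16 of -0.09 at 24 h and of -0.09 at 4 h, beside medians over all tested probe sets of -0.02 and -0.00. Scn1a was at -0.10 at 24 h (95% interval -0.53 to 0.33) and at 0.20 at 4 h (-0.24 to 0.65), and Cacna1e at -0.17 (-0.57 to 0.22) and -0.08 (-0.48 to 0.33), and differences within these intervals were not resolved. The 10th percentile of signal averaged 47.9 ± 6.18 on ipsilateral and 51.3 ± 7.74 on contralateral arrays at 24 h (SD, n = 8 each), and 57.1 ± 10.4 and 56.9 ± 12.5 at 4 h (SD, n = 7 and 8). Of 8 microglia markers 0 passed at 24 h, with a summed signal of 8209 to 21111, median 12339.5 in ipsilateral and 6140.4 to 10786, median 7305 in contralateral cortex.

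**Figure D2:**
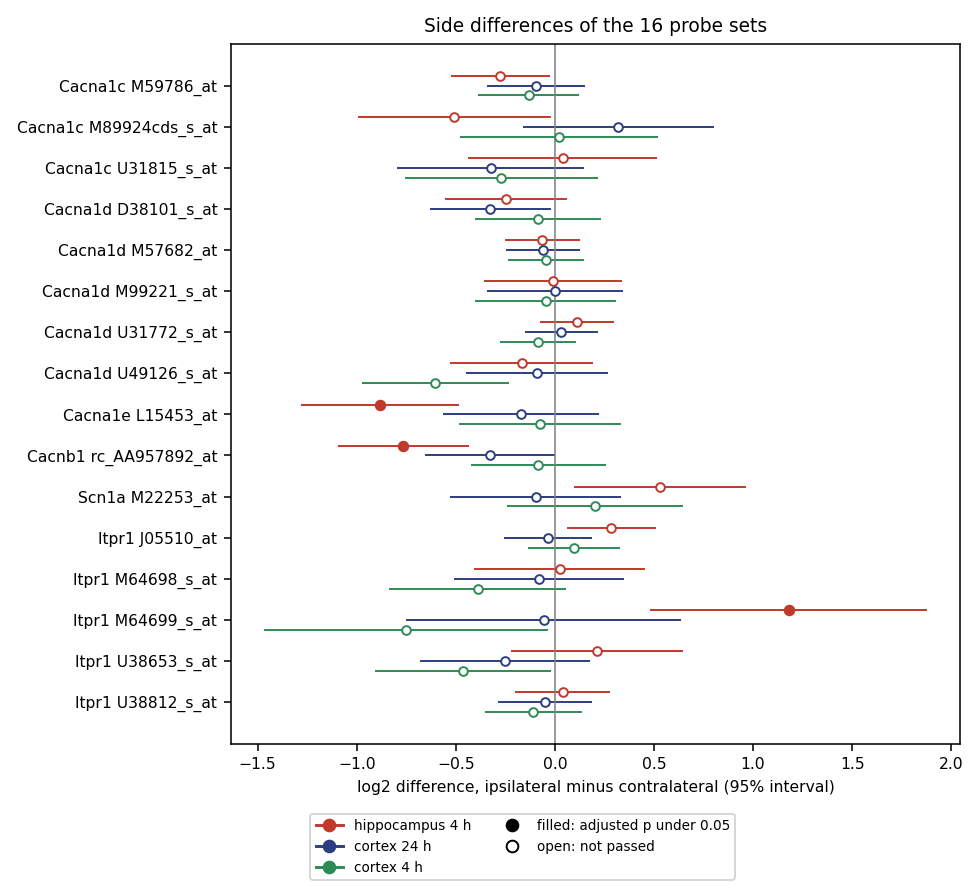
Log2 differences, ipsilateral minus contralateral, of the 16 probe sets (rows) with 95% intervals, for hippocampus at 4 h (red), cortex at 24 h (blue) and cortex at 4 h (green), filled where the adjusted p was under 0.05. The 3 filled points are Cacna1e (-0.88), Cacnb1 (-0.77) and Itpr1 M64699_s_at (1.18), all in hippocampus.

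The side difference itself was compared between hippocampus and cortex at 4 h and, in cortex, between 24 h and 4 h. Only Itpr1 M64699_s_at of the 16 passed in the first of these, against 4.18% of all tested probe sets. Its side difference was 1.18 in hippocampus and -0.75 in cortex, an excess of 1.93 (SE 0.50, adjusted p = 0.0226). It passed with each of the 31 arrays left out in turn (highest adjusted p 0.0455), but not with a lower floor at the 10th percentile of all values (2.18, adjusted p = 0.0562) or the 10th percentile of signal as covariate (2.09, adjusted p = 0.112). Cacna1e at -0.81 (SE 0.28, adjusted p = 0.0902) and Cacnb1 at -0.68 (SE 0.24, adjusted p = 0.0875) did not pass, so their lower ipsilateral signal in hippocampus is not shown to differ from what cortex showed. Cacna1e passed when array 14 was left out (adjusted p = 0.0345). Between 24 h and 4 h, the cortical side difference changed for 0 of the 16 probe sets, against 0% of all tested probe sets in limma. At an unadjusted p under 0.05 the count was 0 of the 16 and 421 of all.

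Between 4 h and 24 h in cortex, 3 Itpr1 probe sets and Scn1a were higher at the later time on both sides. The 2 time comparisons share no arrays with each other. The 24 h arrays carry sample numbers above all 4 h arrays, so time and anything else that differed between those 2 sets of samples cannot be told apart. For Itpr1 M64698_s_at the lowest, median and highest signals in ipsilateral cortex were 309, 956 and 1239.8 at 24 h and 61.8, 172 and 448 at 4 h. In contralateral cortex they were 666, 891 and 1338 at 24 h and 104, 324 and 439 at 4 h, and these 2 groups did not overlap, while the ipsilateral groups overlapped through array 34 alone. The log2 difference was 1.88 (SE 0.22, adjusted p = 1.02e-07) on the ipsilateral side and 1.57 (SE 0.21, adjusted p = 4.51e-07) on the contralateral side, 3.69-fold and 2.98-fold higher at 24 h. At 4 h this probe set was above the floor on 3 of 7 ipsilateral and 7 of 8 contralateral arrays, and at 24 h on all 16 arrays, so the folds are understated.

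Itpr1 U38653_s_at was above the floor on all 47 arrays. Its signals in ipsilateral cortex were 489, 1925 and 2352 at 24 h and 477, 779.9 and 1365 at 4 h, and in contralateral cortex 1495, 1886 and 2556 at 24 h and 831, 1091 and 1294 at 4 h. The contralateral groups were separate and the ipsilateral groups overlapped through array 34. The differences were 1.05 (SE 0.22, adjusted p = 0.000515) on the ipsilateral and 0.84 (SE 0.21, adjusted p = 0.00314) on the contralateral side. M64699_s_at rose by 1.69 (SE 0.36, adjusted p = 0.000528) on the ipsilateral side and by 0.99 (SE 0.34, adjusted p = 0.0318) on the contralateral side, where it did not pass with quantile normalization (adjusted p = 0.0760), with the lower floor (0.0786) or when array 12, 14, 15, 43, 46 or 48 was left out (up to 0.0871). Without array 34 the 3 ipsilateral differences were 2.09 (SE 0.19, adjusted p = 1.34e-10) for M64698_s_at, 1.997 (SE 0.32, adjusted p = 1.26e-05) for M64699_s_at and 1.30 (SE 0.18, adjusted p = 7.94e-07) for U38653_s_at. The remaining Itpr1 probe sets did not pass. J05510_at was at 0.09 (SE 0.11, adjusted p = 0.641) on the ipsilateral and 0.22 (SE 0.11, adjusted p = 0.156) on the contralateral side, and U38812_s_at at 0.25 (SE 0.12, adjusted p = 0.142) and 0.19 (SE 0.12, adjusted p = 0.257). The 5 probe sets therefore disagree on the size of the time difference, which for J05510_at had an ipsilateral 95% interval of -0.14 to 0.32.

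**Figure D3:**
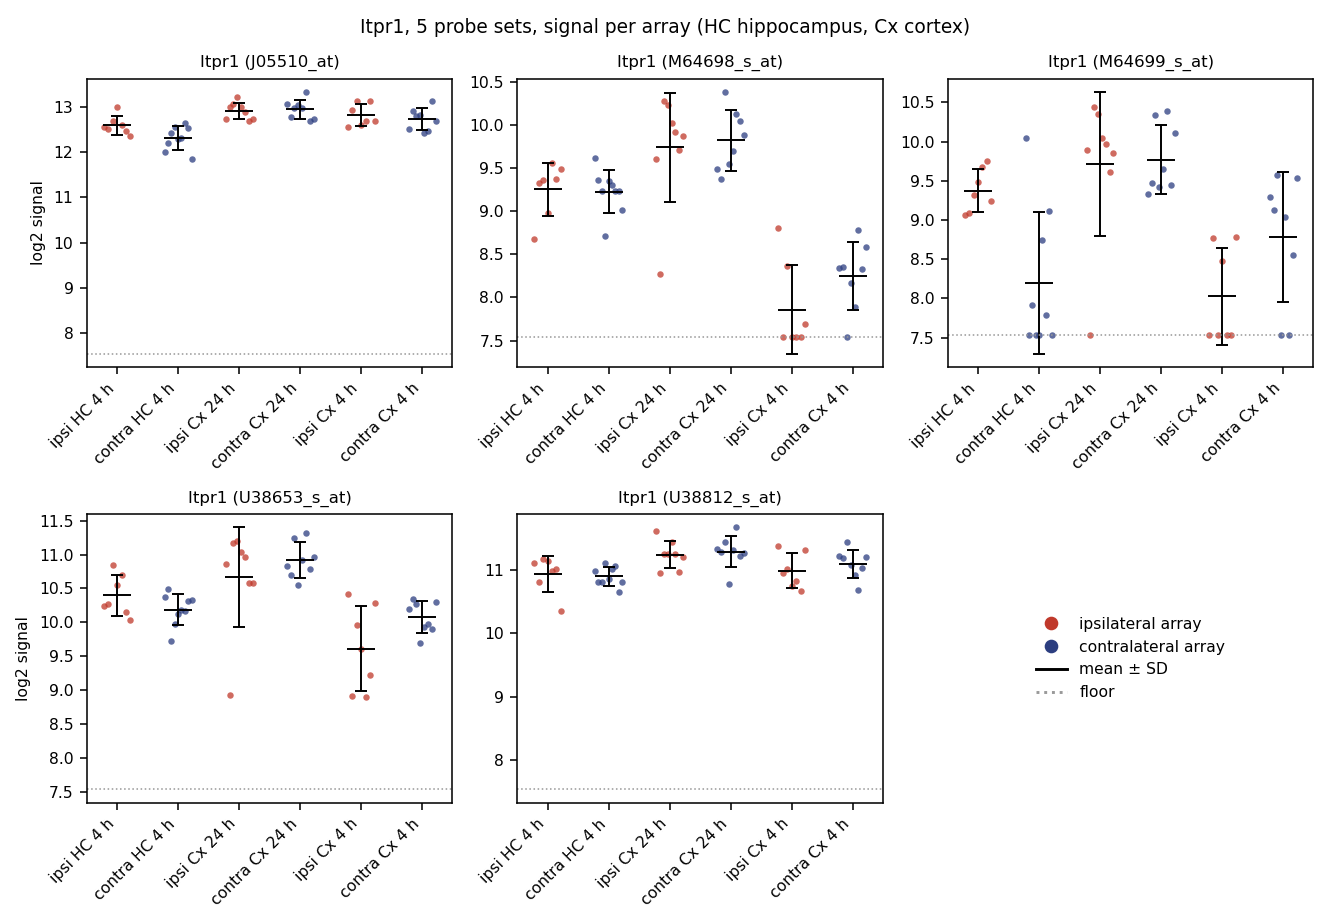
Log2 signal of the 5 Itpr1 probe sets (panels) on each array, in the 6 groups of side, region (HC hippocampus, Cx cortex) and time, with the group mean and SD in black and the floor as a dotted line. M64698_s_at, M64699_s_at and U38653_s_at are higher at 24 h than at 4 h in cortex on both sides. Array 34 is the low point in ipsilateral cortex at 24 h in 4 of the 5 panels, J05510_at being the exception.

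Scn1a signals in contralateral cortex were 3964, 6341 and 7948 at 24 h (lowest, median, highest) and 2097, 3049.6 and 4736 at 4 h. All 8 arrays at 24 h lay above the 4 h median and 7 of them above every 4 h array. The difference was 0.92 (SE 0.21, adjusted p = 0.00115), 1.89-fold higher at 24 h, and it passed under each alternative run and with each of 16 arrays left out. In ipsilateral cortex the signals were 2981, 6021 and 8950.3 at 24 h and 2481, 3957 and 4529.9 at 4 h, with more overlap. That difference of 0.62 (SE 0.22, adjusted p = 0.0388) was lost with quantile normalization (adjusted p = 0.0734), without the filter (0.0578), with the 10th percentile of signal as covariate (0.125), with only the compared groups in the fit (0.0623), and without array 1, 3, 8, 35, 36, 39 or 40 (up to 0.106). Cacna1d U49126_s_at was lower at 24 h in contralateral cortex, with signals of 68.6, 164 and 388 at 24 h and 259, 290.2 and 446 at 4 h. It was above the floor on 3 of 8 arrays at 24 h and on 8 of 8 at 4 h. The difference of -0.56 (SE 0.18, adjusted p = 0.0186) was lost with the lower floor (adjusted p = 0.0776) and without array 16 (0.0503). The 4 other Cacna1d probe sets lay between -0.06 and 0.27 on that side and did not pass.

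In all, 4 of the 16 passed in ipsilateral cortex, 4 higher, against 19.3% of all tested probe sets, and 5 in contralateral cortex, 4 higher and 1 lower, against 21.5%. Cacna1c, Cacna1e and Cacnb1 did not pass on either side. Cacna1c M89924cds_s_at was at 0.63 (SE 0.25, adjusted p = 0.0689) in ipsilateral cortex and passed when array 33, 34 or 37 was left out (lowest adjusted p 0.0335). The 3-prime to 5-prime ratio of the Gapdh control was 1.04 to 1.14, median 1.09 at 24 h and 1.08 to 1.33, median 1.22 at 4 h in ipsilateral cortex, and 1.04 to 1.15, median 1.07 at 24 h and 1.14 to 1.35, median 1.20 at 4 h in contralateral cortex. Of 8 pan-neuronal markers, 1 was higher and 2 were lower at 24 h on each side. Their summed signal was 195974 to 222988, median 206814 at 24 h and 199508 to 235902, median 214335 at 4 h in ipsilateral cortex, and 186007 to 224026, median 218830.0 at 24 h and 201579 to 241318, median 216791 at 4 h in contralateral cortex. The cortex-enriched marker Rorb was at 0.80 (SE 0.29, adjusted p = 0.0473) in ipsilateral and 0.99 (SE 0.28, adjusted p = 0.00901) in contralateral cortex, and the other, Nr4a2, at 0.61 (SE 0.19, adjusted p = 0.016) and 0.47 (SE 0.18, adjusted p = 0.0537). Their summed signal was 2122 to 4011, median 3567 at 24 h and 1361 to 3588, median 1979 at 4 h in ipsilateral cortex, and 2709 to 4998, median 3596 at 24 h and 2092 to 3331, median 2657 at 4 h in contralateral cortex. Nr4a2 was higher in hippocampus than in cortex at 4 h, by 0.76 on the ipsilateral and 0.67 on the contralateral side. The sum is therefore no measure of cortical tissue. The part of these measures in the time differences was not tested.

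**Figure D4:**
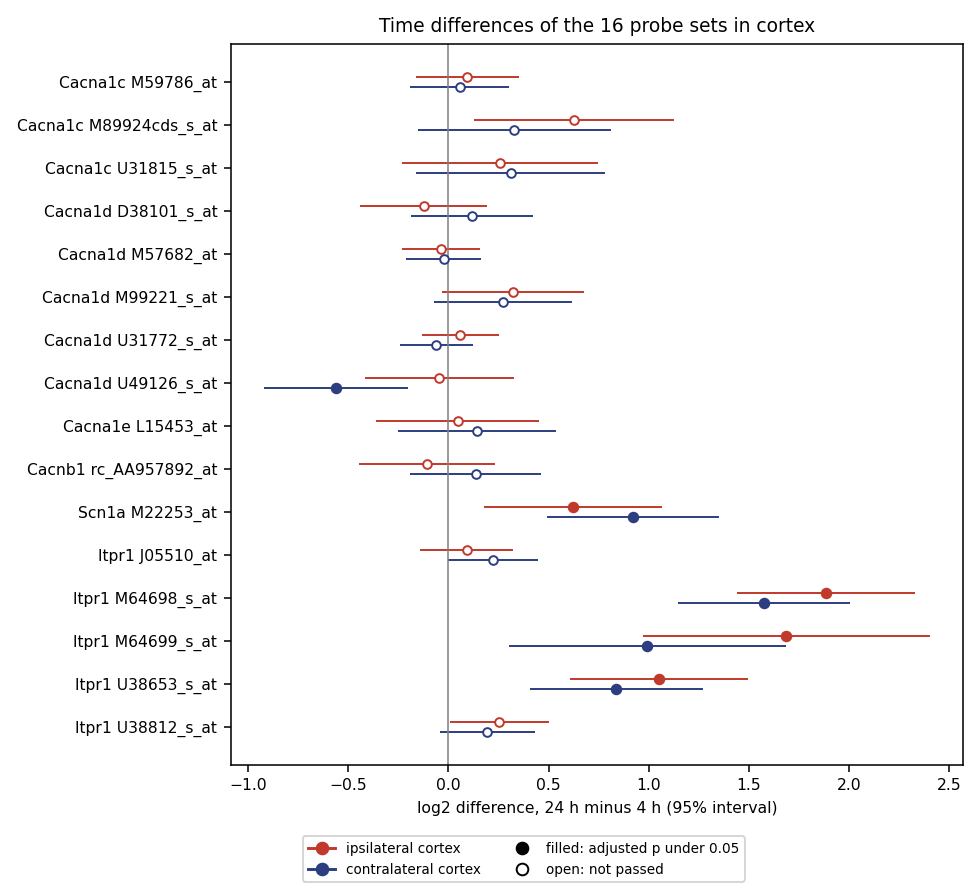
Log2 differences, 24 h minus 4 h, of the 16 probe sets (rows) with 95% intervals, in ipsilateral (red) and contralateral (blue) cortex, filled where the adjusted p was under 0.05. Itpr1 M64698_s_at stands at 1.88 and 1.57 and Scn1a at 0.62 and 0.92, while Itpr1 J05510_at stands at 0.09 and 0.22.

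Hippocampus and cortex were compared at 4 h on each side. These comparisons use the same 4 groups as the side comparisons at 4 h. The cortex groups at 4 h also entered the time comparisons, so a low or high level there enters both. The values are therefore not independent of those above. On the ipsilateral side, 4 of the 16 passed, 4 higher in hippocampus, against 27.5% of all tested probe sets. Cacna1c U31815_s_at had signals of 284, 371 and 466.3 in hippocampus and 73.3, 96.3 and 232 in cortex, with no overlap, and was above the floor on 7 of 7 and 1 of 7 arrays. Its difference was 0.92 (SE 0.25, adjusted p = 0.00419). Itpr1 M64698_s_at at 1.40 (SE 0.23, adjusted p = 4.48e-06), M64699_s_at at 1.35 (SE 0.37, adjusted p = 0.00435) and U38653_s_at at 0.78 (SE 0.23, adjusted p = 0.0076) were the other 3. Itpr1 M64699_s_at had 536, 641 and 866 in hippocampus and 81.8, 180.1 and 442 in cortex without overlap, and for M64698_s_at and U38653_s_at all 7 hippocampus arrays lay above the cortex median. Itpr1 J05510_at lay the other way, at -0.22 (SE 0.12, adjusted p = 0.167), and did not pass. These 4 calls passed under each of the 5 alternatives and with each of 14 arrays left out in turn.

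On the contralateral side, 9 of the 16 passed, 6 higher and 3 lower in hippocampus, against 33.7% of all tested probe sets. Itpr1 M64698_s_at was higher, with signals of 420.1, 604 and 787 in hippocampus and 104, 324 and 439 in cortex and a difference of 0.98 (SE 0.21, adjusted p = 0.000215). Itpr1 J05510_at was lower, with 3713, 5077 and 6455 in hippocampus and 5521, 6894 and 9013 in cortex and a difference of -0.41 (SE 0.11, adjusted p = 0.00257). All 9 hippocampus arrays of J05510_at lay below the cortex median, so 2 probe sets of the same gene passed in opposite directions. The other 3 Itpr1 probe sets did not pass, and M64699_s_at did without array 23, at -0.81 (SE 0.32, adjusted p = 0.0432). Scn1a was lower, with 1107, 1911 and 2982 in hippocampus and 2097, 3049.6 and 4736 in cortex, a difference of -0.76 (SE 0.21, adjusted p = 0.00357) with all 9 arrays below the cortex median. On the ipsilateral side Scn1a was at -0.43 (SE 0.23, adjusted p = 0.165) and did not pass. Cacna1d U49126_s_at was lower at -0.53 (SE 0.17, adjusted p = 0.0147).

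The calcium channel genes Cacna1c, Cacna1e and Cacnb1 were higher in contralateral hippocampus than in contralateral cortex. On the ipsilateral side Cacna1e and Cacnb1 lay the other way and did not pass. Cacna1e averaged 8.68 in ipsilateral hippocampus and 8.82 in ipsilateral cortex, and Cacnb1 9.79 and 10.04 (log2 signal). On the contralateral side the values were as follows. Cacna1e had 508, 798 and 1110.3 in hippocampus and 331, 468 and 817 in cortex, a difference of 0.67 (SE 0.19, adjusted p = 0.00532), and Cacnb1 was at 0.43 (SE 0.16, adjusted p = 0.0312). The 3 Cacna1c probe sets were at 0.86 (SE 0.23, adjusted p = 0.00331) for M89924cds_s_at, 0.61 (SE 0.23, adjusted p = 0.0328) for U31815_s_at and 0.34 (SE 0.12, adjusted p = 0.0225) for M59786_at. The median difference of all tested probe sets was 0.11 here, and 0.01 with quantile normalization, under which the share of higher calls was 49.3% against 66.2%. With that normalization Cacna1e (0.44, adjusted p = 0.0654), Cacnb1 (0.24, adjusted p = 0.248), Cacna1c M59786_at (0.19, adjusted p = 0.227) and Cacna1c U31815_s_at (0.53, adjusted p = 0.0765) did not pass, while M89924cds_s_at did (0.69, adjusted p = 0.022). Cacnb1 was also lost with the covariate (adjusted p = 0.0843) and without array 9, 10, 15, 23, 27 or 28 (up to 0.082). M59786_at was lost with only the compared groups in the fit (0.0544) and without array 9 or 16 (up to 0.0646). U31815_s_at was lost with that fit (0.11), with the lower floor (0.15) and without array 9, 11, 13, 15, 16, 25, 26, 27, 29 or 30 (up to 0.0736). Choroid plexus markers varied widely, with a summed signal of 9310.5 to 97408, median 47350.0 in contralateral hippocampus and 8699 to 61843, median 11092 in contralateral cortex, where 2 of 5 were higher in hippocampus. On the ipsilateral side they summed to 8053 to 102351, median 12825 in hippocampus and 9426 to 71620.1, median 10468 in cortex, with 1 of 5 higher. Of 6 oligodendrocyte markers 3 were higher and 1 lower in hippocampus on the ipsilateral side and 0 passed on the contralateral side. Of 8 pan-neuronal markers 1 was higher and 3 lower on the ipsilateral side, and 0 were higher and 3 lower on the contralateral side. The 3-prime to 5-prime ratio of beta-actin was 1.16 to 1.43, median 1.35 in hippocampus and 1.39 to 1.89, median 1.61 in cortex on the ipsilateral side, and 1.06 to 1.36, median 1.22 in hippocampus and 1.33 to 1.71, median 1.49 in cortex on the contralateral side. For Gapdh the medians were 1.12 in hippocampus and 1.22 in cortex on the ipsilateral side, and 1.08 and 1.20 on the contralateral side. The part of these measures in the region differences was not tested.

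**Figure D5:**
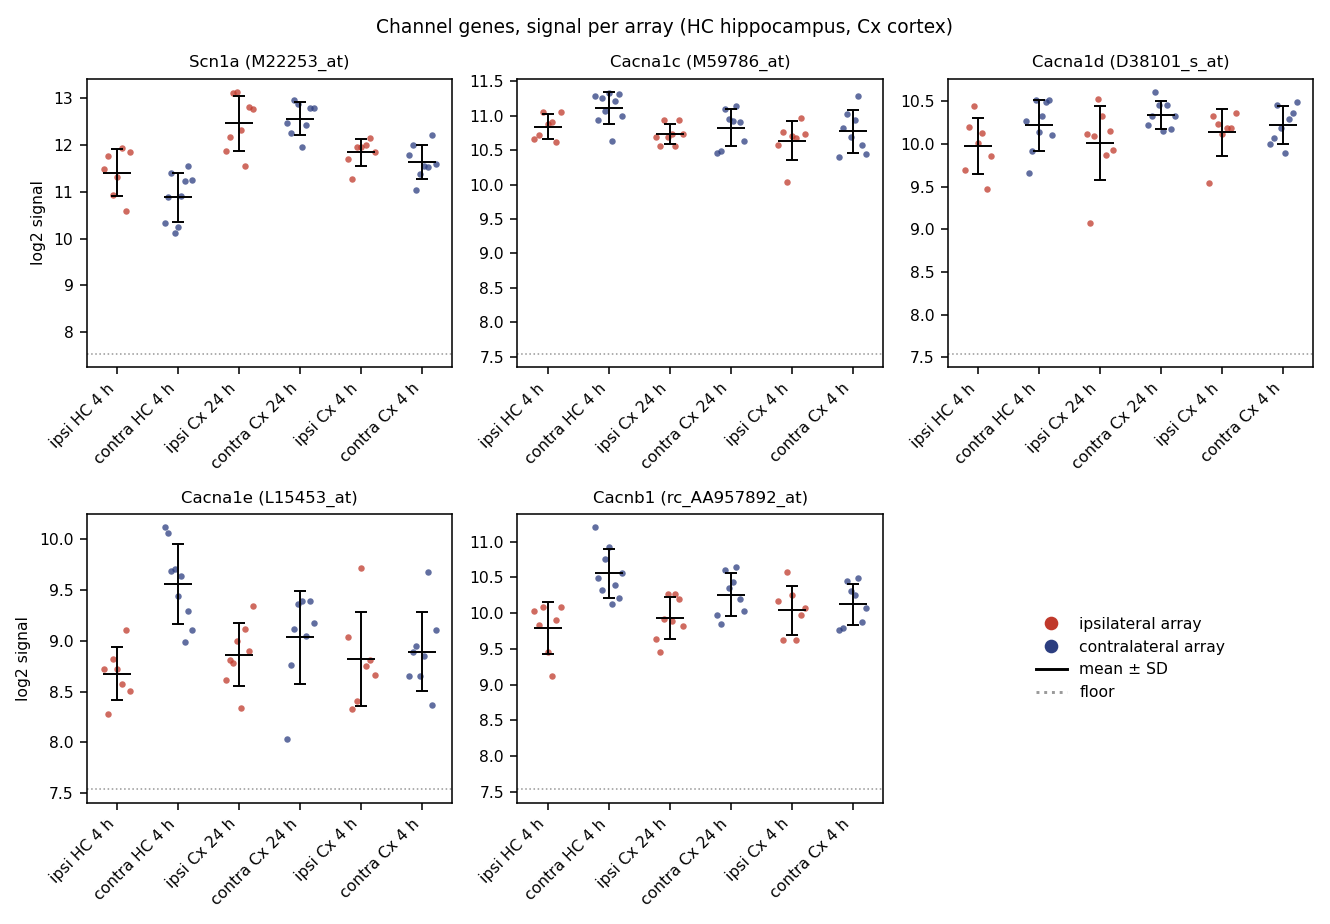
Log2 signal on each array of Scn1a, Cacna1c M59786_at, Cacna1d D38101_s_at, Cacna1e and Cacnb1 (panels) in the 6 groups of side, region (HC hippocampus, Cx cortex) and time, with the group mean and SD in black and the floor as a dotted line. Scn1a is highest in cortex at 24 h, and Cacna1e and Cacnb1 are highest in contralateral hippocampus.

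Across the 6 groups, Scn1a and the 5 Itpr1 probe sets had their highest mean in contralateral cortex at 24 h, followed by ipsilateral cortex at 24 h, and these neighbours differed by less than the larger SD of the pair. Scn1a averaged 12.56 ± 0.35 and 12.46 ± 0.58 there, and was lowest in contralateral hippocampus at 10.88 ± 0.53 (log2 signal, SD, n = 8, 8 and 9). Cacna1e was highest in contralateral hippocampus at 9.56 ± 0.39, and its other 5 groups each lay within 1 SD of the next. With array 23 included, its gap over the next group, contralateral cortex at 24 h, was 0.52 and exceeded the SD of 0.46. That gap was not computed without array 23, the highest of its group. Cacnb1 was highest in the same group at 10.55 ± 0.35, with every neighbour within 1 SD. Cacna1c M59786_at averaged 11.12 ± 0.23 in contralateral hippocampus and between 10.64 and 10.84 in the other groups. Cacna1d D38101_s_at averaged between 9.97 and 10.34, with each neighbour within 1 SD. The remaining 4 Cacna1d probe sets were dim, above the floor on 11, 22, 11 and 20 of 47 arrays for M57682_at, M99221_s_at, U31772_s_at and U49126_s_at, and so were Cacna1c M89924cds_s_at (23) and U31815_s_at (28). For these a difference below the floor was not detectable.

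Probe sets of 1 gene did not all vary together. After removing group means, Pearson's r over 47 arrays was 0.692 between Itpr1 M64698_s_at and U38653_s_at, 0.560 between U38653_s_at and U38812_s_at, and 0.540 between M64699_s_at and U38653_s_at. Between J05510_at and the other 4 it ran from -0.069 to 0.194. Names ending in _s_at mark probe sets whose probes match more than 1 transcript sequence, and which transcripts each set detects is not given in the sources used here. For Cacna1c the 3 pairs ran from -0.229 to 0.193 and for Cacna1d the 10 pairs from -0.113 to 0.146. Cacna1e and Cacnb1 had r = 0.369 within groups and 0.605 over all 47 arrays. The probe sets most like each member over all 47 arrays, taking each gene's brightest set, were Kcnc1 (r = 0.884), Gabrb2 (0.838) and Tpm3 (0.783) for Itpr1 J05510_at, and Gucy1b1 (0.879), Dlg1 (0.852) and Cx3cl1 (0.847) for Scn1a. They were Fam229a (0.717), Sycn (0.713) and Avp (0.688) for Cacna1e, Plec (0.699), Fmc1 (0.685) and Madcam1 (0.677) for Cacnb1, Map4k1 (0.623), Adcyap1r1 (0.606) and Pttg1ip (0.599) for Cacna1c, and Pik3r1 (0.630), Ppp3r1 (0.550) and another Pik3r1 probe set (0.547) for Cacna1d. Within groups the first of each list had r of 0.758 for Kcnc1, 0.578 for Gucy1b1, 0.547 for Fam229a, 0.567 for Plec, 0.422 for Map4k1 and 0.709 for Pik3r1. These correlations describe arrays that share group, scaling and dim end.

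Other genes of the same pathways were followed in 4 lists, each gene by its brightest probe set. In the hippocampal side comparison 16.1% of all tested probe sets passed, and 5 of 7503 with the 10th percentile of signal as covariate. In hippocampus, ipsilateral against contralateral at 4 h, 0 of 9 other calcium channel subunits were higher and 1 lower, the T-type pore Cacna1g at -0.29 (SE 0.10, adjusted p = 0.0493). Of 9 other sodium channel subunits 0 passed in limma in that comparison. Of 14 genes of calcium stores and pumps 1 was higher and 4 were lower. The plasma membrane pump Atp2b1 was higher at 0.26 (SE 0.09, adjusted p = 0.0378), by 1 of its 3 tested probe sets. The store pump Atp2a3 was at -0.64 and the sodium-calcium exchanger Slc8a3 at -0.63. The type 3 receptor Itpr3 was lower by both of its probe sets, at -0.67 by the dimmer one. Of 13 genes of the IP3 pathway 3 were higher and 1 lower. Plcb4, a phospholipase C that makes IP3, was at 0.70 (SE 0.17, adjusted p = 0.00376), the IP3 kinase Itpka at 0.36 and protein kinase C beta, Prkcb, at 0.25, while Plcd4 was at -0.72. Plcb4 passed by 1 of its 2 tested probe sets and Prkcb by 1 of its 3. The medians of the 4 lists were -0.03, -0.01, -0.08 and 0.06, beside -0.04 over all tested probe sets. Itpka is also on the list of hippocampus-enriched markers. In cortex 0 genes of the 4 lists passed in limma in the side comparison at 24 h or at 4 h. For the side difference in hippocampus minus that in cortex 0 passed by their brightest probe set, and the dimmer Itpr3 probe set was at -0.82 (SE 0.24, adjusted p = 0.0417).

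The shares of all tested probe sets that passed with time in cortex were 19.3% on the ipsilateral and 21.5% on the contralateral side. Of the lists, 2 of the 9 calcium channel subunits were higher and 3 lower at 24 h on the ipsilateral side, and 1 higher and 2 lower on the contralateral side. The beta subunit Cacnb4 was higher on both, at 0.60 (SE 0.15, adjusted p = 0.00344) and 0.70 (SE 0.15, adjusted p = 0.000419), and the alpha-2/delta subunit Cacna2d1 lower on both, at -0.49 (SE 0.10, adjusted p = 0.000431) and -0.63 (SE 0.10, adjusted p = 4.33e-06). On the ipsilateral side the T-type pore Cacna1h was at -1.12, with means of 7.85 ± 0.47 at 24 h, near the floor, and 8.97 ± 0.57 at 4 h (log2 signal, SD, n = 8 and 7). Of the 9 sodium channel subunits 2 were higher and 1 lower on the ipsilateral side and 2 higher on the contralateral side, with Scn8a, the Nav1.6 pore, at 0.66 (SE 0.14, adjusted p = 0.000632) on the ipsilateral side. Of the 3 tested Scn8a probe sets 1 passed on each side, the brightest on the ipsilateral and a dimmer one, at 0.51, on the contralateral side. On the ipsilateral side Scn2a was at 0.28 and Scn9a at -0.84, the latter by 1 of its 2 tested probe sets. Scn9a averaged 7.60 ± 0.18 at 24 h, near the floor, and 8.44 ± 0.78 at 4 h (log2 signal, SD, n = 8 and 7). In the IP3 pathway, 1 of 13 was higher and 1 lower on the ipsilateral side and 2 were higher and 2 lower on the contralateral side. The phospholipase Plcb1 was higher at 0.49 (SE 0.11, adjusted p = 0.000758) and 0.80 (SE 0.10, adjusted p = 1.57e-07), and Itpka was lower at -0.56 (SE 0.12, adjusted p = 0.000648) and -0.40 (SE 0.12, adjusted p = 0.0101). Among 14 store and pump genes, 1 was higher and 2 lower on the ipsilateral side, and 4 were higher and 1 lower on the contralateral side. The ryanodine receptor Ryr2, the other release channel of the endoplasmic reticulum, was at 0.70 (SE 0.18, adjusted p = 0.00388) in contralateral cortex. The brightest probe set of the store pump Atp2a2 was lower at -0.42 and -0.51. Of its 4 tested probe sets, 2 dimmer ones were higher on the contralateral side, 1 of them at 0.77, so its probe sets disagree.

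Between hippocampus and cortex, 27.5% of all tested probe sets passed on the ipsilateral and 33.7% on the contralateral side. In the lists, 1 of 9 calcium channel subunits was higher and 4 lower in hippocampus on each side. Cacna2d1 was lower at -0.97 (SE 0.10, adjusted p = 3.00e-10) on the ipsilateral and -1.08 (SE 0.09, adjusted p = 4.55e-13) on the contralateral side, and the beta subunit Cacnb2 was higher at 0.78 and 0.63. Of 9 sodium channel subunits, 2 were higher and 1 lower on the ipsilateral side and 1 higher on the contralateral side, with Scn8a at 0.68 and 0.53. Of 14 store and pump genes, 5 were higher and 3 lower on the ipsilateral side and 6 higher and 2 lower on the contralateral side. The plasma membrane pump Atp2b2 was lower at -1.12 (SE 0.11, adjusted p = 3.76e-11) and -1.06 (SE 0.10, adjusted p = 6.60e-12), and the exchanger Slc8a1 was higher by a dimmer probe set at 1.07 and 0.98. Of 13 IP3 pathway genes, 1 was higher and 3 lower on the ipsilateral side and 4 higher and 3 lower on the contralateral side. Plcb4 was lower at -0.45 and -1.09, by 1 of its 2 tested probe sets on each side. Protein kinase C alpha, Prkca, was higher at 1.23 and 0.74.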

How the data were processed

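Total RNA from rat cortex and hippocampus was measured on 47 arrays, with Trizol extraction per the labels. Each deposited value is a linear intensity of 1 probe set, by a summary algorithm not given in the sources used here. Array-wise, the 2%-trimmed means lay between 2503 and 2504, so the deposited scaling was kept. The 25th percentile of all values, 186, served as a floor for lower values before the log2 step. Testing was limited to the 7503 probe sets that exceeded the floor on 7 or more arrays, the 59 controls set aside. Symbols came from the platform annotation (7018 probe sets name 1 gene, 308 several, 1473 none), and 6994 matched RefSeq by gene ID.

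All 47 arrays entered 1 model of 6 group means (R 4.3.3, limma 3.58.1, eBayes with trend, two-sided), tested in 9 comparisons with Benjamini-Hochberg adjustment over the 7503 probe sets and a threshold of 0.05. The procedure was tested on data simulated with independent noise per probe set and no array-wide shift. That test therefore does not bear on array-wide differences such as those of the dim end in hippocampus. The number of arrays limits the precision. All 16 probe sets of the 6 genes are named. From each pathway list the text draws on the probe sets past the threshold with the largest changes, up to 3 in each direction in side comparisons and 2 in the others. The genes, lists and tests were chosen with earlier results of these data known. Alternatives were quantile normalization, no filter, a floor at the 10th percentile, the 10th percentile of signal as covariate, only the compared groups in the fit, and each array left out in turn.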

Additional observations from a re-analysis of the deposited data

Results flagged for a closer look

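The 16 probe sets in the 6 groups gave 94 sets of arrays that could be examined for a lone extreme array by Dixon's ratio, which is the gap to the nearest array over the range of the group. An extreme array was found in 18 of them. Chance marks about 1 in 20 groups of freely varying values, which does not hold where arrays lie at the floor, since a single array above it gives a ratio of 1.0 by construction. Of the 56 sets with no array at the floor 6 had an extreme array, and of the 38 others 12, 8 of them with a single array above the floor. Array 34 of ipsilateral cortex at 24 h was the low one in Itpr1 M64698_s_at (signal 309, group median 956, ratio 0.668), Itpr1 M64699_s_at (59.7 against 977, ratio 0.715), Itpr1 U38653_s_at (489 against 1925, ratio 0.726) and Cacna1d D38101_s_at (538 against 1102, ratio 0.551). In ipsilateral cortex at 4 h, array 1 was low in Cacna1d D38101_s_at (746 against 1165, ratio 0.703) and array 4 in Cacna1c M59786_at (1052 against 1679, ratio 0.586). Array 41 of contralateral cortex at 24 h was low in Cacna1e (263 against 567.7, ratio 0.531).

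The other extreme arrays were high ones in dim probe sets, where most arrays of the group lay at or near the floor. Array 23 of contralateral hippocampus was high in Cacna1d M99221_s_at (452 against 179, ratio 0.725). Cacna1d U49126_s_at had a lone high array in ipsilateral cortex at 24 h (array 38, ratio 0.907) and in ipsilateral hippocampus (array 21, ratio 0.962). A ratio of 1.0, with a single array above the floor, was reached by array 4 in Cacna1d U49126_s_at (444), array 8 in Cacna1d M99221_s_at (318) and Cacna1d U31772_s_at (220.0), array 3 in Cacna1d M57682_at (224), array 7 in Cacna1c M89924cds_s_at (254) and array 1 in Cacna1c U31815_s_at (232), all in ipsilateral cortex at 4 h. The same was seen for array 15 of contralateral cortex at 4 h in Cacna1c M89924cds_s_at (235) and for array 45 of contralateral cortex at 24 h in Cacna1d M57682_at (257).

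The side difference of Itpr1 M64699_s_at at 4 h differed between hippocampus and cortex by 1.93 on the log2 scale in the test of that difference (limma, adjusted p = 0.0226). It was above the floor on 7 of 7 ipsilateral and 5 of 9 contralateral arrays in hippocampus, and on 3 of 7 ipsilateral and 6 of 8 contralateral arrays in cortex.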

How the results depend on the processing

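No paired analysis was possible because each sample number occurs once in the labels, so no numbers are shared between groups. Over the 5 alternatives, 0 of the differences that passed changed sign. Each alternative gave 144 results for the 16 probe sets in the 9 comparisons. Calls lost were 6 with quantile normalization, 1 without the filter, 4 with the lower floor, 6 with the covariate and 3 with only the compared groups. Calls gained were 1, 0, 3, 2 and 0 in the same order. With the 10th percentile of signal as covariate, 0 of the 16 probe sets passed in the hippocampal side comparison (5 of all 7503 tested, against 1207) and 0 in the comparison of that side difference with the cortical one (1 of all, against 314); the cause was not tested. With the lower floor, 3 passed in contralateral cortex over time. Leaving out each array in turn gave 3 to 5 probe sets in the hippocampal side comparison, 1 to 2 for its difference from cortex, 3 to 5 over time in ipsilateral and 4 to 5 in contralateral cortex, 4 to 4 between regions on the ipsilateral and 6 to 9 on the contralateral side, and 0 to 0 for the cortical side differences and their change with time. Over all tested probe sets, the side comparison in cortex at 24 h called 8, but 0 without the filter or with only the compared groups and 13 with the covariate, and at 4 h it called 0, but 1 with quantile normalization, 5 with the lower floor and 2 with the covariate. The difference of side differences called 64 with only the compared groups, and the change with time called 1 with the lower floor. With quantile normalization the share of higher calls was 46.2% (33.1% as deposited) in the hippocampal side comparison, 51.1% (61.6%) over time in contralateral cortex 36.7% (25.8%) for the difference of side differences and 100% (87.5%) in cortex at 24 h. The floor limits what the 6 dim probe sets of Cacna1c and Cacna1d can show.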
